A study of Mus musculus with 2 samples.

Results

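Megabase stretches of the mouse autosomes in which no 200-bp tile reached set read counts in both of 2 TBP ChIP-seq libraries are described here. Chromatin bound by TBP had been immunoprecipitated from V6.5 embryonic stem cells, a murine line of C57BL/6-129 background, with the antibody Abcam AB818. The 2 libraries, B2 and B6, form 1 group and differ in the passages that the cells spent off feeder fibroblasts (2 for B2, 1 for B6), in the upper limit of the fragments cut from the gel (350 and 300 bp, both from 150 bp) and in read length (36 and 26 bases). Whether they came from separate cultures is not stated, all data come from 1 cell line, and no library made without the antibody was analysed here.

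The bins were chosen by the reads themselves. Reads with 1 alignment on chromosomes 1 to 19 were reduced to 1 per position and strand ("distinct reads"), moved 60 bp from their 5 prime end towards the fragment centre, and counted in tiles of 200 bp. A threshold tile held at least 15 distinct reads in B2 and at least 6 in B6. A bin of 1 Mb was scored if it held at least 500 distinct reads of B2, and it was called site-free if no tile in it reached both numbers. Of 2381 scored bins, 651 (27.3%) were site-free, and the other 1730 held 21643 threshold tiles with a median of 8 per bin. "Site-free" is a name for this rule, at this depth, and does not state that TBP was absent. B2 had 15563916 distinct autosomal reads and B6 had 2796016, so B6 limits how weak a shared site can be seen.

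TBP, the TATA-binding protein, is a subunit of the complexes that bring all 3 nuclear RNA polymerases to their promoters: TFIID for polymerase II, SL1 for polymerase I and TFIIIB for polymerase III. Places where it gathers therefore include promoters in use, from those of ubiquitous genes to those of transfer RNAs. Genes are spread unevenly over mammalian chromosomes, and long stretches with few genes are known as gene deserts. Some gene families, such as the olfactory and vomeronasal receptors of the mouse, also lie in large clusters that are used only in specialised neurons. Which genes lie in the bins was not analysed here, because no gene annotation or sequence of build mm8, the build of the read positions, was at hand. For the same reason markers of embryonic stem cells or of leftover feeder cells were not looked up, and no sequence is printed.

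Site-free bins lay on every autosome, and their share varied by chromosome. It was highest on chromosome 14, where 41 of 116 scored bins (35.3%) were site-free, followed by chromosome 3 (54 of 157, 34.4%). Chromosome 11 had the lowest share with 21 of 119 (17.6%), and chromosome 13 was next with 22 of 117 (18.8%). The median over the 19 autosomes was 27.6%. Chromosome 11 carried 2159 threshold tiles and chromosome 14 carried 712, at nearly the same number of scored bins.

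**Figure D1:**
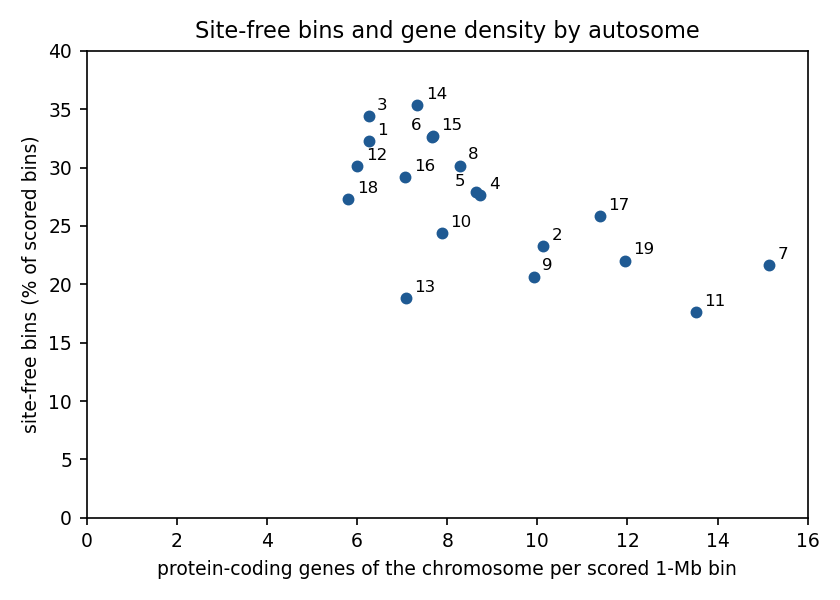
Share of scored 1-Mb bins that were site-free (y axis, percent) against the number of protein-coding genes of the chromosome per scored bin (x axis), 1 point per autosome, labelled with its number. Shares run from 17.6% on chromosome 11 to 35.3% on chromosome 14, and chromosome 13 lies below the other chromosomes of similar gene number.

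Chromosomes with more protein-coding genes per scored bin tended to have smaller site-free shares. Gene numbers per chromosome came from the RefSeq table for another assembly, GRCm38.p6, and no position from it was used. Over the 19 autosomes, Pearson's r was -0.65 and Spearman's rho was -0.60. Without chromosomes 7 and 11, the farthest from the median gene density, r was -0.53 and rho -0.48. The receptor families Olfr, Vmn1r and Vmn2r made up 1456 of the 20665 protein-coding genes counted, and without them r was -0.64 and rho -0.55. Chromosome 7 had the most genes per scored bin (15.1, of which the receptors were 417 of 2030 genes), and 21.6% of its bins were site-free. Chromosome 13 departed from this trend, with 7.09 genes per scored bin and a share of only 18.8%. Chromosome 14 had a similar 7.34 genes per bin and the highest share, 35.3%. These correlations describe 19 chromosomes whose lengths and read numbers also differ, and no test was made of them.

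Site-free bins were neighbours of each other more often than their overall share. After a site-free bin the next scored bin was site-free in 298 of 646 cases (46.1%), and after another bin in 348 of 1701 (20.5%). The 651 bins formed 353 uninterrupted runs. Of these, 209 were single bins, which is 32.1% of the site-free bins, and 19 runs of at least 5 bins held 123 (18.9%). Measured from threshold tile to threshold tile, the empty stretch around a site-free bin had a median of 3214.6 kb and ran from 1031.2 to 12240.2 kb, over 647 bins with such a tile on both sides. The last 10 scored bins of each chromosome, at the end far from the centromere, held fewer: 31 of 190 (16.3%) were site-free. The first 10 held 49 of 190 (25.8%), and the bins between held 571 of 2001 (28.5%). Read density also differed. Outside threshold tiles, median B2 reads per 1-kb window holding any read were 7.88 in the last 10 bins. They were 5.87 in the first 10 and 6.26 in the bins between. The part of density in these shares was not tested.

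The 5 longest runs show what such a stretch looks like. The longest covered 11 bins, chr15:14000001-25000000 on mm8. It held 35281 distinct reads in B2 and 6132 in B6. In its 11 bins the density of B2 stayed between 3.46 and 3.98 distinct reads per covered kb, meaning per 1-kb window that held any read of either library. The tile that came nearest to the threshold in the whole run held 7 reads of B2 and 3 of B6. The nearest threshold tiles, chr15:13118201-13118400 and chr15:25358401-25358600, lay 12.2 Mb apart. The bin to the left of the run held 1 threshold tile and the bin to the right held 14.

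The second run, of 10 bins, was chr14:87000001-97000000, with 3.36 to 3.94 distinct reads per covered kb in B2 and a best tile of 11 and 4 reads. The third, of 9 bins, was chr5:55000001-64000000, with 3.42 to 4.42 per kb and a best tile of 12 and 4. A further run on chromosome 14, chr14:105000001-113000000, had 8 bins at 3.23 to 4.04 per kb, and its best tile held 7 and 2 reads; on its left a threshold tile lay only 8.1 kb from its border. The run chr8:99000001-107000000 also had 8 bins. Its density was higher, 3.58 to 5.47 per kb, yet its best tile held only 5 reads of B2 and 2 of B6. The bins on either side of it held 31 and 13 threshold tiles. Chromosome 14 thus carried 2 of the 5 longest runs, and in all 5 the density of the run as a whole, 3.55 to 4.24 reads per covered kb in B2, was below the median of 7.38 in bins with threshold tiles.

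**Figure D2:**
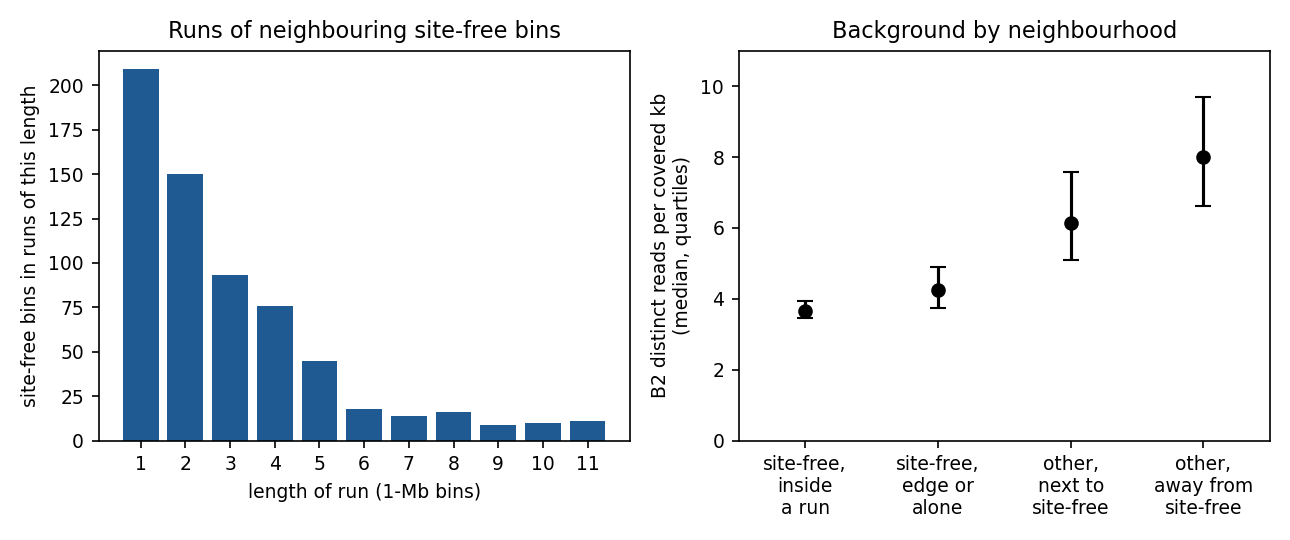
Left, number of site-free bins (y axis) in uninterrupted runs of each length in 1-Mb bins (x axis). Right, B2 background density in distinct reads per covered kb (y axis, point at the median, bars at the quartiles) for 154 site-free bins with site-free bins on both sides, 497 site-free bins at an edge or alone, 607 other bins next to a site-free bin and 1123 other bins away from them. The median rises in that order from 3.66 to 8.02.

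By the median, background was lowest in the interior of runs, although the single sparsest site-free bin in B2 stood at an edge or alone. Background here means distinct reads outside threshold tiles. Site-free bins with a site-free bin on both sides (154 bins) had a median of 3.66 distinct reads per covered kb in B2 and 0.627 in B6. Those at the edge of a run or alone (497 bins) had 4.25 and 0.720. Other bins next to a site-free bin (607) had 6.15 and 1.03, and other bins with none beside them (1123) had 8.02 and 1.34. Other bins next to a site-free bin also held fewer threshold tiles, with a median of 5 against 10. The order was the same in both libraries. In B2 the range between the quartiles of interior bins (3.47 to 3.93) overlapped that of site-free bins at an edge or alone (3.75 to 4.90). The range of other bins next to a site-free bin (5.10 to 7.58) lay above both. Since the rule used these reads and sparse bins are more often site-free, such gaps may be built in. They are given as a description and were not tested.

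Across all site-free bins the background was a little over 0.5 times that of the other bins, in both libraries. In B2 the median was 4.05 distinct reads per covered kb (middle 80% of bins 3.38 to 5.61), against 7.38 (4.86 to 10.7) in the other bins, a ratio of 0.549. In B6 it was 0.691 (0.559 to 0.935) against 1.23 (0.817 to 1.82), a ratio of 0.563. On all 19 autosomes the median was lower in site-free bins, in each library. The ranges overlapped: 51 of the 1730 other bins (2.95%) lay below the site-free median of B2, and 645 of the 651 site-free bins, not all, lay below the median of the other bins. The rule used these reads, so this is a description and was not tested. Of the covered length 26.1% fell in site-free bins, but only 15.7% of B2 and 14.6% of B6 distinct reads did.

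**Figure D3:**
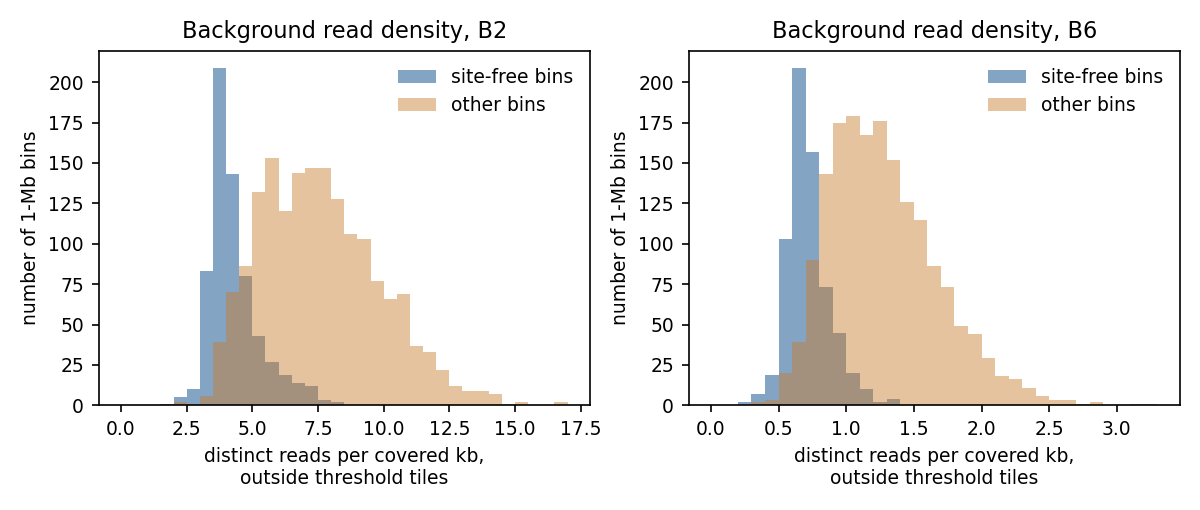
Number of 1-Mb bins (y axis) by distinct reads per covered kb outside threshold tiles (x axis), for 651 site-free bins (blue) and 1730 other bins (orange), in B2 (left) and B6 (right). Site-free bins form a narrow peak at low density, with medians of 4.05 and 0.691, and the other bins spread over higher values with medians of 7.38 and 1.23.

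The share of site-free bins fell steeply with density. When the 2381 bins were ranked by B2 background and cut into 5 equal classes, 395 of the 477 sparsest (82.8%) were site-free. The next classes had 190 of 476 (39.9%), 53 of 476 (11.1%) and 13 of 476 (2.73%). In the densest class, above 8.90 reads per covered kb, there were 0 of 476. A fixed number of reads is a higher hurdle where reads are sparse. In the median site-free bin, 15 reads were 18.5-fold the mean tile of the bin in B2, and 6 reads were 43.4-fold the mean in B6. In the median other bin they were 10.2-fold and 24.5-fold. With a threshold lowered in step with the density of the bin (median 10 and 4 reads in site-free bins), 611 of the 651 remained site-free and 40 gained a threshold tile. That alternative was added after the data were seen.

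Reads within site-free bins were also more evenly spread. For windows of 10 kb in which each kb was covered, the variation of B2 counts beyond counting error was expressed as a coefficient of variation. Its median was 0.148 over 627 site-free bins with enough such windows and 0.297 over 1713 other bins, and it was lower in site-free bins on 19 of 19 autosomes. In the interior of runs the median was 0.117. Threshold tiles were left out, but the flanks of strong sites in other bins were not, and their part in this difference was not tested. The rule used these reads and chose bins without high tiles, so part of the lower variation may be built in. The values are given as a description.

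Site-free bins varied among themselves in read number and in covered length. Their distinct reads in B2 ran from 561 to 8223, with a median of 3532, and in B6 from 82 to 1348, with a median of 603. The fullest was chr8:121000001-122000000, with 8223 reads in B2 and 1312 in B6, where the best tile held 6 and 4. It was followed by chr17:85000001-86000000 (8182 and 1348) and chr13:57000001-58000000 (7830 and 1138). Their densities of 8.36, 8.30 and 7.92 reads per covered kb in B2 were above the median of the other bins, and each stood at the edge of a run or alone. The emptiest was chr4:60000001-61000000, with 561 and 82 reads, and only 134 of its 1000 windows of 1 kb were covered. Next were chr14:40000001-41000000 (695 and 107 reads, 173 kb covered) and chr6:130000001-131000000 (809 and 109 reads, 452 kb covered). A low count there went with a small covered length. The densities of the first 2, at 4.19 and 4.02 reads per covered kb in B2, were near the median of site-free bins.

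Between the libraries, density per bin varied together. Over the 651 site-free bins the log2 densities of B2 and B6 had r = 0.95 and rho = 0.94, and over the other bins r and rho were both 0.98. These are correlations across bins, which share mapping and neighbouring sequence, and are given as a description.

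The rule draws a line through a continuous range of tile counts. For each bin, the tile nearest to the threshold was found by the smaller of B2 reads over 15 and B6 reads over 6. The median site-free bin reached 0.333 of the threshold, 168 of 651 (25.8%) reached at least 0.5 and 46 reached at least 0.8. Just inside were 3 bins of chromosome 9 that missed by a single B2 read. The tile chr9:9231201-9231400 held 14 reads of B2 and 6 of B6, chr9:10607401-10607600 held 14 and 13, and chr9:81660201-81660400 held 14 and 9. Others reached the same value, and these came first by position. The first and second of them stand in neighbouring bins, so the stretch from 9000001 to 11000000 counts as site-free although both libraries were high in each bin.

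Just outside were 163 bins with exactly 1 threshold tile. The first by position among those exactly at the threshold were chr1:35794801-35795000 (26 reads of B2 and 6 of B6), chr1:176338401-176338600 (20 and 6) and chr2:178563601-178563800 (20 and 6). Of the 163, 83 (50.9%) adjoined a site-free bin, against 35.1% of all other bins. Their median background, 5.32 reads per covered kb in B2 and 0.886 in B6, lay between the medians of site-free bins and of other bins.

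A high tile in 1 library without the other was found in a minority of site-free bins. Of the 651, 72 (11.1%) had a tile with at least 15 reads in B2, 74 (11.4%) had a tile with at least 6 in B6, and 24 had both, in different tiles. The remaining 529 (81.3%) had neither. The highest such B2 tile held 38 reads and the highest B6 tile 16. In the bin chr17:85000001-86000000 the highest B2 tile held 32 reads, where B6 had 2. The typical site-free bin was far from this: its highest tile held 8 reads in B2 and 3 in B6, and the tile highest in B2 held a median of 0 reads in B6.

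Choosing on 1 library left the other free for comparison. Of 579 bins without any tile of 15 reads in B2, 50 (8.64%) had a tile of at least 6 reads in B6, against 75.8% of all 2381 bins and 97.3% of the remaining 1802. Of 577 bins without any tile of 6 reads in B6, 48 (8.32%) had a tile of at least 15 reads in B2, against 75.7% of all bins and 97.2% of the remaining 1804. In the 579 bins the highest B6 tile had a median of 3 reads and a maximum of 15. In the 577 bins the highest B2 tile had a median of 7 reads and a maximum of 32. Both libraries therefore placed their empty megabases largely in the same bins.

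Below the threshold, site-free bins held weak pile-ups that were shared by both libraries. The rule puts no bound on B6 where a tile has fewer than 15 reads in B2, so B6 can be compared there. In site-free bins, tiles with 0 to 4 B2 reads (3233540 tiles) had a mean of 0.124 B6 reads, with an exact Poisson 95% interval of 0.123 to 0.124. Tiles with 5 to 9 B2 reads (20889) had 0.387 (0.379 to 0.396), and tiles with 10 to 14 (457) had 2.38 (2.24 to 2.52). Of those 457 tiles, 38 (8.32%, Wilson 95% interval 6.12 to 11.2) held at least 6 B6 reads, and 20.8% held none. These intervals hold only counting error; copies made by PCR cannot be told from separate molecules.

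In other bins, whether tiles of the same high B2 count held more or fewer B6 reads depended on the distance from strong sites. All 32900 tiles of other bins with 10 to 14 B2 reads had a mean of 2.49 B6 reads (2.47 to 2.51), above that of site-free bins, and 9.41% held at least 6. Counting only tiles over 2 kb from any threshold tile, 19210 tiles with 10 to 14 B2 reads had a mean of 2.17 B6 reads (2.15 to 2.19), and 6.89% of them (6.54 to 7.26) held at least 6. Low tiles differed: with 0 to 4 B2 reads the mean in such tiles of other bins was 0.200, against 0.124 in site-free bins. At 14 B2 reads the means were 3.87 in 45 tiles of site-free bins and 3.07 in 1870 tiles of other bins, with intervals of 3.31 to 4.49 and 2.99 to 3.15. The gap was not as wide at nearby counts: the means were 2.76 and 2.72 at 13 reads, and 2.30 and 2.37 at 12 reads. At 11 reads they were 2.35 and 2.09. At 10 reads they were 1.92 and 1.70, with overlapping intervals of 1.72 to 2.14 and 1.67 to 1.73. Such tiles were far fewer in site-free bins. Tiles with 10 to 14 B2 reads numbered 457 in 651 site-free bins and 19210 in 1730 other bins, even with the surroundings of threshold tiles left out. In all, 100 site-free bins (15.4%) held 153 tiles with at least 10 reads in B2 and 4 in B6. All 1730 other bins held such a tile, since a threshold tile meets these lower numbers. Over all 2381 scored bins, only 551 (23.1%) held none.

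**Figure D4:**
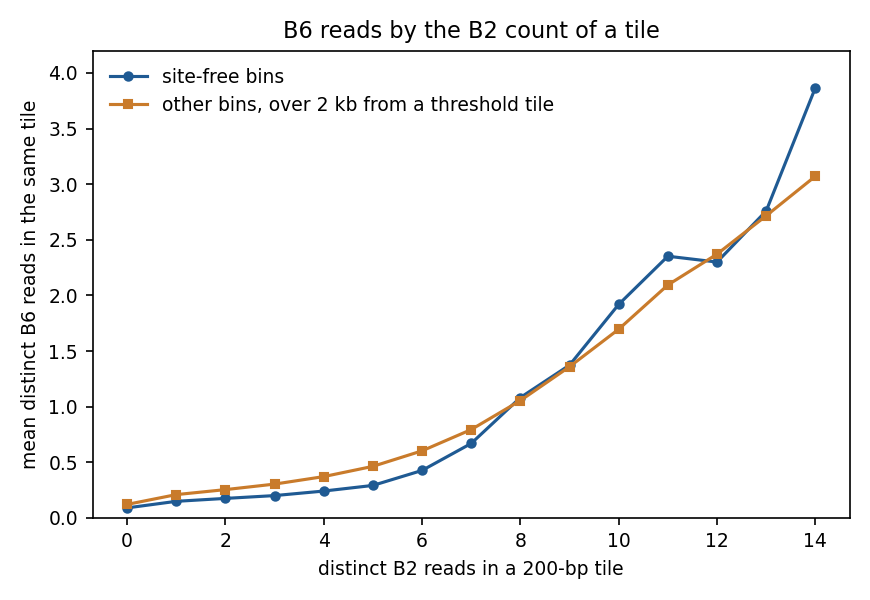
Mean distinct B6 reads in a 200-bp tile (y axis) by the number of distinct B2 reads in the same tile (x axis, 0 to 14), for site-free bins (blue circles) and for tiles of other bins over 2 kb from a threshold tile (orange squares). Site-free bins lie lower up to 7 reads and at 12 reads, and higher at the other counts from 8 on, up to 3.87 against 3.07 at 14 reads, where they have 45 tiles.

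These weak pile-ups were narrow in B6 although they had been selected on B2 alone. Around 449 tiles of 10 to 14 B2 reads in site-free bins, B6 averaged 0.588 distinct reads per 50 bp within 100 bp of the tile centre and 0.106 beyond 1 kb, a ratio of 5.54. Around 19135 such tiles in other bins, the values were 0.541 and 0.130, a ratio of 4.18. In B2, which chose the tiles, the values in site-free bins were 2.83 and 0.551. In other bins they were 2.84 and 0.715. The site-free bins thus had a lower floor on both sides of a peak of about the same height. In B2 that height was set by the choice of tiles. The lower floor restates the sparser background of site-free bins, whose reads the rule used.

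**Figure D5:**
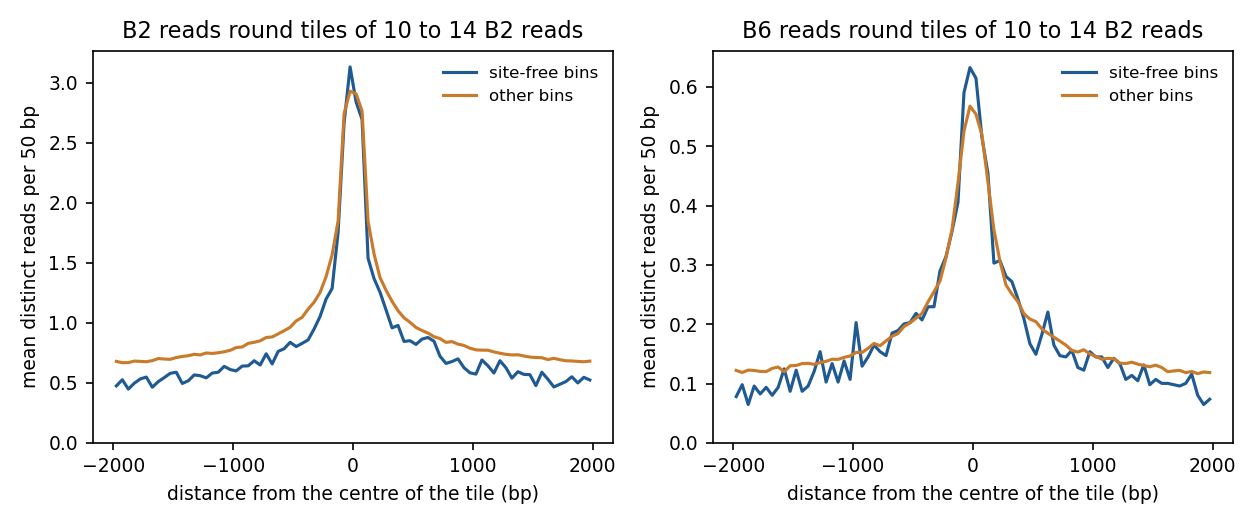
Mean distinct reads per 50 bp (y axis) by distance from the centre of tiles with 10 to 14 B2 reads (x axis, bp), in B2 (left) and B6 (right), for 449 tiles in site-free bins (blue) and 19135 in other bins over 2 kb from a threshold tile (orange). Both libraries peak at the centre; the B6 curve of site-free bins falls from 0.588 within 100 bp to 0.106 beyond 1 kb.

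Reads around the highest B2 tile of each bin were offset between the strands in most site-free bins. Ends within 200 bp of the tile centre were used, and a strand needed at least 3 ends. From 5 prime ends on the plus strand to those on the minus strand, the median distance in B2 was 87.0 bp over 517 site-free bins (quartiles 45.5 and 126), and it was above 0 in 93.6% of them. In the other bins it was 89.5 bp (72.0 and 105), above 0 in 99.0%. B6 gave a value in only 46 site-free bins, with a median of 67.5 bp, above 0 in 73.9%, against 85.5 bp and 96.1% in 1681 other bins. Part of the offset may be built in, since ends were moved by 60 bp before tiles were counted and the highest tile was then chosen. How large this part is in each kind of bin was not tested, so the nearness of the B2 medians is given as a description. The spread was wider in site-free bins, where the highest tile holds few reads.

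Reads with 2 alignments took a larger share in site-free bins. The rule did not use these reads, but the share also counts reads with 1 alignment, which it did use. Part of the difference in share may therefore be built in. The median share was 4.91% of distinct reads in B2 (middle 80% of bins 2.67 to 13.0), against 3.69% (2.31 to 11.5) in other bins. In B6, whose reads are shorter, it was 13.2% (9.21 to 22.5) against 9.47% (6.98 to 17.3). The median was higher in site-free bins on 19 of 19 autosomes in both libraries, and the ranges overlapped widely. Per covered kb, however, such reads were fewer: 0.207 against 0.307 in B2 and 0.106 against 0.148 in B6, lower on 19 of 19 autosomes. They thus fell less than reads with 1 alignment did, to 0.677 and 0.717 of the level in other bins.

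Some site-free bins could hold pile-ups in copies that reads with 1 alignment do not show. Of the 651, 37 (5.68%) had a tile of reads with 2 alignments that reached 15 reads in B2 and 6 in B6, and 16.8% of all scored bins had one. Among other bins it was 364 of 1730 (21.0%). The bin with the most was chr4:79000001-80000000, with 11 such tiles of the 62 found in site-free bins. It held 1559 reads with 2 alignments in B2 against 2871 with 1, and 932 against 464 in B6. Such reads appear at each of their places, and which copy they came from is not known. The highest shares in B2 were 66.1% in chr6:130000001-131000000, 59.0% in chr12:115000001-116000000 and 57.8% in chr4:145000001-146000000, none of which had such a tile. In these 3 bins between 208 and 541 of 1000 windows of 1 kb were covered, and the rest held no distinct read with 1 alignment. How much of that was due to mapping was not tested.

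Duplicates, removed before the rule was applied, went different ways in the libraries. Outside threshold tiles, repeats of a position and strand made up a median of 3.19% of B2 reads in site-free bins and 4.09% in other bins. In B6 they made up 7.25% and 6.48%. The median was lower in site-free bins on 19 of 19 autosomes in B2 and higher on 18 of 19 in B6. What sets this contrast was not tested.

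The share of background reads that came from B6 was close to even over both kinds of bin. The ratio of B6 to B2 relative to all scored bins had a median of 0.999 in site-free bins (middle 90% 0.873 to 1.11) and 0.997 in other bins. Each bin was tested with a two-sided exact binomial test against the share over all bins, with Benjamini-Hochberg adjustment over 2381 bins and a threshold of 0.05. The p-values compare these 2 libraries and cover counting error only. Of 651 site-free bins, 57 (8.76%) passed, against 13.9% of all bins. This count depended on the setting. It was 86 with all reads kept and 28 against the share of the bin's own chromosome. With reads inside threshold tiles kept it was 203. Site-free bins hold no such reads, so there only the expected share and the adjustment changed. Of the 57 bins, 19 (2.92%) were higher in B6, against 6.64% of all bins, and 38 (5.84%) were lower, against 7.22%. Site-free bins hold fewer reads, which limits the test. Among bins with 3074.5 to 4277 B2 reads, the middle of the range for site-free bins, 18 of 325 site-free bins (5.54%) and 9 of 141 other bins (6.38%) passed. The directions were 14 higher and 4 lower in B6 for the site-free bins, and 2 higher and 7 lower for the other bins. Without chromosome 8 they were 5 higher and 4 lower of 306 site-free bins, and 2 higher and 7 lower of 139 other bins. The difference in direction was not tested.

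Chromosome 8 gave 12 of the 19 site-free bins that were higher in B6. Its 38 site-free bins had a median ratio of 1.09, and 12 of them (31.6%) passed, all higher. The other 88 bins of the chromosome had the same median ratio, 1.09, and 47 of them (53.4%) passed, again all higher, so the shift was seen in both kinds of bin. Without chromosome 8, 45 of 613 site-free bins (7.34%) passed, 7 higher and 38 lower. Of all 2255 bins without that chromosome 271 passed, 99 higher and 172 lower. Calls lower in B6 were thus more numerous over all bins too, and the difference in split was not tested. The highest ratios were chr8:54000001-55000000 (3238 reads in B2 and 667 in B6, ratio 1.22, exact binomial adjusted p = 0.000164), chr8:105000001-106000000 (3617 and 727, ratio 1.19, adjusted p = 0.000680) and chr8:5000001-6000000 (3463 and 691, ratio 1.19, adjusted p = 0.00171). The bin at 105000001 stands inside one of the long runs described above.

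The lowest ratios came from bins with an above-median share of reads with 2 alignments. They were chr2:36000001-37000000 (3328 and 424 reads, ratio 0.757, exact binomial adjusted p = 2.44e-06), chr4:121000001-122000000 (1283 and 167, ratio 0.773, adjusted p = 0.0169) and chr7:17000001-18000000 (2914 and 386, ratio 0.787, adjusted p = 0.000254). Reads with 2 alignments made up 11.1%, 50.4% and 36.1% of B2 reads there, against a median of 4.91% in site-free bins. In the bins with the highest ratios, named above, they made up 5.02%, 4.13% and 8.43%. Some of these also lay above the median, and all lay below the shares in the bins with the lowest ratios. A link between this share and the ratio was not tested. The part of mapping, which differs between reads of 36 and 26 bases, and of the gel limits was not tested.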

How the data were processed

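The 2 libraries of TBP-bound chromatin were used as deposited: lists of signed alignment positions on mm8, with reads of 1 and of 2 alignments listed apart. Reads were aligned with Bowtie (-e 70, -k 2, -m 2, -n 2, -l 36 for B2 and 26 for B6), per the file headers; the submitters' processing notes name Bowtie and mm8 without a version. Reads with more than 2 alignments were thus not listed. Per the labels' protocols, fragments were amplified by 18 cycles of PCR.

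Positions were read as the leftmost base counted from 0, checked on chromosome M, where the highest position plus the read length was 16299 in both libraries; printed coordinates count from 1. Chromosomes X and Y were left out by the rule. Python 3.11.15, NumPy 2.4.6, SciPy 1.17.1, pandas 2.3.3 and matplotlib 3.10.9 were used. A kb was covered if it held a distinct read of either library. The rule and the binomial test were tested on simulated data. The members and measures were chosen with earlier results of these data known. Bins were named by rank: the 5 longest runs, and the 3 most extreme bins in reads, closeness to the threshold on either side, share of reads with 2 alignments and library ratio in each direction among those that passed; the bin with the most tiles of 2-alignment reads, the B2 tile of 32 reads and chromosomes in the text were picked after their values were seen.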

Additional observations from a re-analysis of the deposited data

How the results depend on the processing

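The number of site-free bins was 651 and stayed between 551 and 747 with other thresholds (10 and 4, or 20 and 8 reads), duplicates kept, no shift or a shift of 100 bp, tiles of 400 bp or moved by 100 bp, bins moved by 500 kb, reads with 1 or 2 alignments, 1 library alone (577 and 579), or a threshold scaled to density, which was added after the data were seen. With at least 5000 B2 reads per bin, it was 81 of 1474, since most site-free bins hold fewer reads; the longest run was then 2 bins and the ratio of median B2 reads, site-free to other, 0.728. Under the other settings the longest run was 11 or 12 bins and that ratio 0.479 to 0.503, against 11 and 0.489. Site-free bins with a different library share numbered 57, and 86 with all reads kept, 203 with reads inside threshold tiles kept and 28 with the expected share of the bin's own chromosome; over all bins these alternatives gave 424, 813 and 228 against 330. Site-free bins hold no threshold tile, so keeping reads inside such tiles left their own counts unchanged. Only the expected share and the adjustment over all bins moved. The cause of the other changes was not tested. Site-free bins with a tile of 2-alignment reads numbered 37, and 0 of the 81 with at least 5000 reads. The strand offset in B2 was 86.0 bp with ends within 300 bp. The depth of B6, at a median of 0.138 reads per tile in site-free bins, limits what can be seen: a site too weak for 6 distinct reads there is not shown to be absent. No paired analysis was possible because there is 1 group.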
